A study of Mus musculus with 24 samples.

Results

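The 10 genes described here, Ccng1, Sesn1, Sesn2, Trp53inp1, Zmat3, Eda2r, Phlda3, Aen, Plk2 and Rrm2b, are known direct targets of the transcription factor p53 whose products act mainly outside cell cycle arrest. They were taken by gene name from a list drawn up with earlier results of these data known, by a rule that uses no measured value, and all 10 were found among the 25755 genes of the expression tables. Total RNA of sorted dermal papilla (DP) cells of mouse hair follicles was sequenced in 24 libraries, 3 from control and 3 from dM1/2 mice at each of P20 (first telogen), P24 (early anagen), P28 (mid anagen) and P60 (second telogen). In dM1/2 mice (Cor-cre/+; Hdac1 Flox/Flox; Hdac2 Flox/Flox), the class I histone deacetylases Hdac1 and Hdac2 are both deleted by Corin-Cre, which acts in the DP after birth. The controls carry Cor-cre as well, with floxed Hdac1, floxed Hdac2 or both, some of them homozygous at a single locus, and the labels do not give the genotype of each control library. DP cells carried a YFP reporter and were purified in consecutive rounds of sorting. Females were used at P20, males at P24 and P28, and both sexes at P60. In sorted bulk RNA, fewer cells of a kind and less RNA per cell cannot be told apart.

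The DP is a cluster of specialised fibroblasts at the base of the follicle that signals to the epithelium and drives hair growth in anagen, whereas in telogen the follicle rests. p53, encoded by Trp53, is held low by the ubiquitin ligase Mdm2 and, once stabilised by DNA damage or other stress, binds response elements made of paired copies of a short consensus and raises transcription of its targets. Beside the cell cycle inhibitor Cdkn1a (p21), these include sensors of nutrient and oxidative stress (Sesn1 and Sesn2), genes of autophagy, death signalling and apoptosis (Trp53inp1, Eda2r, Phlda3 and Aen), an RNA-binding protein (Zmat3), a regulator of p53 itself (Ccng1), a polo-like kinase (Plk2) and a subunit of ribonucleotide reductase (Rrm2b).

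Promoters of 7 of the 10 genes were found in the RefSeq table (GRCm38.p6), as 9 windows of 300 bases that run from 250 before to 50 after an annotated start. No window was listed for Zmat3, Trp53inp1 or Rrm2b. Windows were searched on both strands for the p53 consensus decamer without mismatch, and for a paired site of adjoining decamers with a spacer of at most 13 bases and at most 2 mismatches in all, the central C and G of each decamer being kept. Paired sites may overlap each other and contain a decamer counted alone. Of all 32851 windows in the table, 8.36% held a decamer and 4.09% a paired site. A paired site was found in windows of 2 members, Ccng1 and Sesn1, and a single decamer in Aen. The windows of Ccng1, of the downstream start of Sesn1 and of the upstream start of Aen are printed because they hold these matches, and that of Plk2 is printed because it was the member that fell at both anagen ages. Each is written 5′ to 3′ on the strand of the gene, with matched decamers in capitals.
Ccng1, chr11:40755237-40755536 on the minus strand: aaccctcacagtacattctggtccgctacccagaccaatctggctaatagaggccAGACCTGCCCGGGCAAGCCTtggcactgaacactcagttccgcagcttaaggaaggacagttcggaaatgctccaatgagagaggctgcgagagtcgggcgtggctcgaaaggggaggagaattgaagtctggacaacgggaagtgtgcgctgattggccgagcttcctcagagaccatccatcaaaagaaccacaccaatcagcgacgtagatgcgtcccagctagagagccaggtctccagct
Sesn1, chr10:41887189-41887488 on the plus strand: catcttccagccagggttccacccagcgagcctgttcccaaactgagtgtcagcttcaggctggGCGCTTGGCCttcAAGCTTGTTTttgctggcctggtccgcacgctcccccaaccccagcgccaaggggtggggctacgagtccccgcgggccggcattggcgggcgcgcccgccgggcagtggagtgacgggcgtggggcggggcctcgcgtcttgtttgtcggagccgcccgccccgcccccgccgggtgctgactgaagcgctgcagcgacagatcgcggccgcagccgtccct
Aen, chr7:78895677-78895976 on the plus strand: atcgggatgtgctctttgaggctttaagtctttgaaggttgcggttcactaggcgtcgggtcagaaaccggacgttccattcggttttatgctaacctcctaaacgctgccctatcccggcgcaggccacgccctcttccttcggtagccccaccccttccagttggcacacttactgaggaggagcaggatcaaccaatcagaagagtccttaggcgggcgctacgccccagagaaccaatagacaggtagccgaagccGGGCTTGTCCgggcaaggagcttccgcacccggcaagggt
Plk2, chr13:110394794-110395093 on the plus strand: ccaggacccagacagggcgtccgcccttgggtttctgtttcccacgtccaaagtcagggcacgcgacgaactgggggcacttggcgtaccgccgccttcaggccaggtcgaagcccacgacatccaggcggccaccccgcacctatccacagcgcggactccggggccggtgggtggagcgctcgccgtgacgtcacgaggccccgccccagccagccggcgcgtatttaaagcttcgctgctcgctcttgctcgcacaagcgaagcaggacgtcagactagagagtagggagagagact
The pair in Ccng1 had 1 mismatch and a spacer of 0 bases, and that in Sesn1 had 2 mismatches and a spacer of 3 bases. No decamer or paired site was matched in the windows of Phlda3, Sesn2, Plk2 and Eda2r or at the other start of Sesn1. A match is a description of these letters, and nothing about binding was measured.

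In the GENCODE annotation of GRCm38, all 10 are protein-coding genes. Sesn1 lies at chr10:41809935-41908424, Sesn2 at chr4:132492032-132510501, Trp53inp1 at chr4:11156431-11174379 and Eda2r at chrX:97333840-97377216. Phlda3 lies at chr1:135766119-135769136, Aen at chr7:78895854-78911209 and Zmat3 at chr3:32334792-32366014. Ccng1 lies at chr11:40748552-40755311, Plk2 at chr13:110395046-110400844 and Rrm2b at chr15:37923952-37961318. An exon of Rrm2b overlaps the antisense gene Gm49085, whose reads cannot be told apart from those of Rrm2b if strand was not used in counting.

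Anagen libraries held 35469841 to 49331751 reads on genes and telogen libraries 8171944 to 13369732. All values below are normalized reads, that is, reads scaled by a size factor for each library, and a fold change is a difference of log2(normalized reads + 1). Hdac1 held 675, 668 and 668 normalized reads in P24 controls and 209, 188 and 116 in dM1/2, which was -2.01 on the log2 scale (limma, adjusted p = 0.0017). It did not pass at P20 (-0.72, adjusted p = 0.12, every dM1/2 library below every control), at P28 (-0.58, adjusted p = 0.45) or at P60 (-0.25, adjusted p = 0.99, with overlap). At P28, Hdac1 held 214, 529 and 105 in controls and 190.2, 149 and 126 in dM1/2, so that control 3 lay below every dM1/2 library. Hdac2 did not pass the test at any age, and at P24 every dM1/2 library (1157, 1223 and 1282) was above every control (925, 1048 and 1069; log2 fold change 0.27, adjusted p = 0.12). Whole-gene read counts, however, do not show whether the floxed exons were lost. P28 control 3 also had the highest summed level of the 10 DP markers (403219, against 250915 and 138904 in controls 1 and 2), whereas in control 2 Col1a1 took 19.8% of reads. Results at P28 are therefore also given without these libraries. Of the DP markers, Vcan held between 5222 and 208236 normalized reads in every library. The sum of the 10 DP markers was lower in telogen than in anagen. It ranged from 25433 to 27772 in P20 controls and from 31687 to 48699 in P20 dM1/2. At P60 it ranged from 20734 to 24056 in controls and from 16499 to 26372 in dM1/2, beside 268576 to 322284 in P24 controls. The summed level of the 10 keratinocyte markers lay between 98.9, in a P24 dM1/2 library, and 807, in a P60 dM1/2 library. At P60, this sum ranged from 270 to 609 in controls and from 467 to 807 in dM1/2. Of these markers, Krt71 and Krt35 were at 0 in 12 and 15 of the 24 libraries.

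In dM1/2 DP, members of this set of p53 targets passed the test at both anagen ages, and none did in telogen. At P24, 3 members rose (Eda2r, Zmat3 and Aen) and 1 fell (Plk2), whereas 14.8% of all 14028 genes tested rose and 11.8% fell. At P28, 6 rose (Trp53inp1, Zmat3, Aen, Sesn2, Phlda3 and Ccng1) and 2 fell (Plk2 and Rrm2b), against 20.0% and 15.6% of 14126 genes. The median log2 fold change of the 10 members was 0.61 at P24 and 1.15 at P28, beside -0.01 and 0.00 over all genes tested. All 10 passed the filter of a mean of at least 10 normalized reads at each age, so that these medians are over every member. At P24, every dM1/2 library lay above every control for 7 members and below every control for 2, as for 23.8% and 21.0% of all genes. At P28, this held for 8 and 2 members, and for 28.0% and 23.3% of all genes. Calls are at an adjusted p under 0.05 from limma over all genes. Without P28 control 2 or without P28 control 3, 7 members rose at P28 and the median was 0.99 or 1.04, while the share of all genes that rose was 20.0% or 21.8%.

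**Figure D1:**
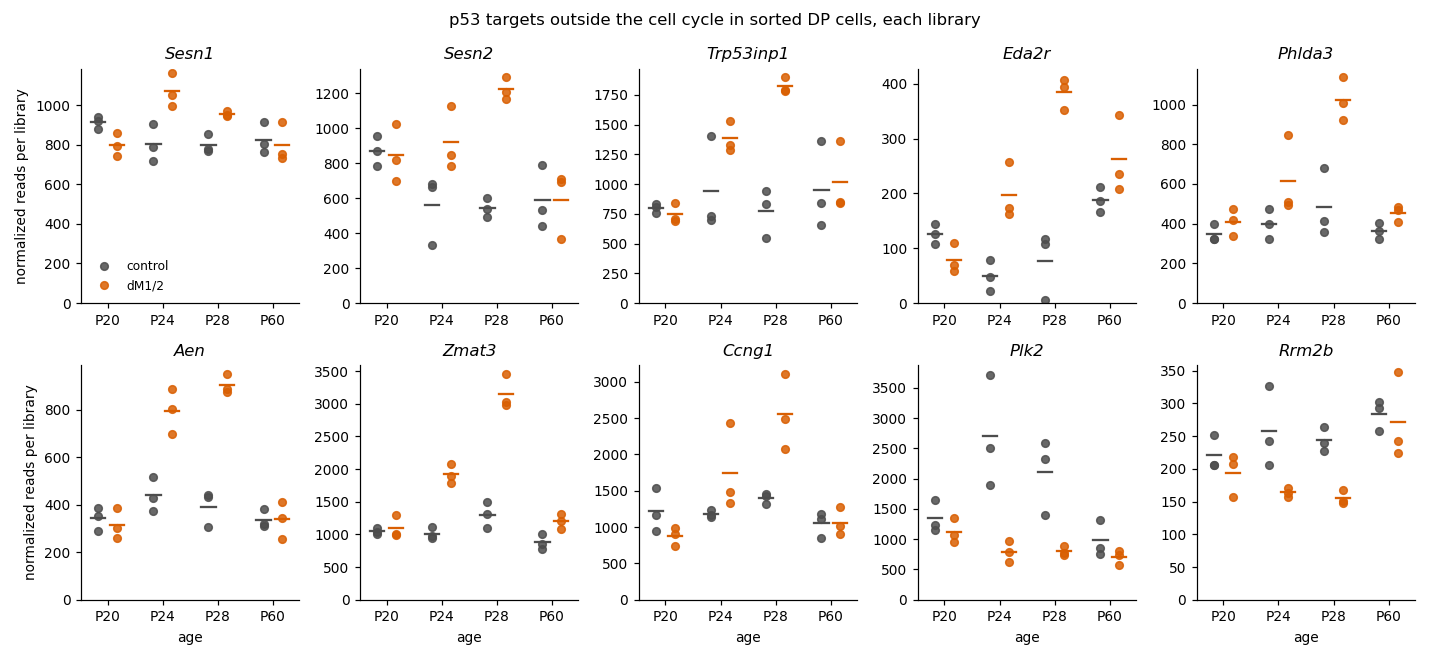
Normalized reads (y axis, from 0) of the 10 genes in each of the 24 libraries, by age (x axis). Points are libraries, in grey for control and orange for dM1/2, and bars are means of 3. Orange points lie above all grey points at P28 for every gene except Plk2 and Rrm2b, where they lie below.

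Zmat3 encodes a zinc finger protein that binds RNA and affects splicing and mRNA stability. In controls, Zmat3 held 949, 971 and 1108 normalized reads at P24 and 1310.1, 1100.3 and 1503 at P28. In dM1/2, it held 1791, 1887 and 2080.5 at P24 and 3456, 3022 and 2986 at P28. All dM1/2 libraries thus stood above all controls at both anagen ages, by a log2 fold change of 0.93 (SE 0.12, adjusted p = 0.0024) at P24 and 1.28 (SE 0.15, adjusted p = 0.0012) at P28. It passed the test in each setting run at these ages with a threshold of 0.05, including every fit that left out a library.

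Sesn1 and Sesn2 encode sestrins, which restrain mTORC1 signalling when leucine or energy is short and limit oxidative damage. Sesn2 held 332, 678 and 665 normalized reads in P24 controls and 844, 783 and 1127 in dM1/2. At P28, its levels were 599, 493 and 536 in controls against 1292, 1205 and 1165 in dM1/2. The groups did not overlap at either age, and Sesn2 rose at P28 (log2 fold change 1.17, SE 0.12, adjusted p = 0.00085) but did not pass the test at P24 (0.77, SE 0.29, adjusted p = 0.089), where control 1 was lowest. Sesn1 moved less. It held 906, 790.2 and 719 in P24 controls and 1163, 997 and 1050.1 in dM1/2, which was 0.41 higher on the log2 scale and short of the threshold (adjusted p = 0.051). Sesn1 passed there in DESeq2 (adjusted p = 0.024) and without P24 control 1 (adjusted p = 0.044), but not in edgeR with TMM (adjusted p = 0.054). At P28, Sesn1 held 769, 852 and 779.7 in controls and 944, 971 and 951 in dM1/2 (log2 fold change 0.26, adjusted p = 0.10).

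Trp53inp1 encodes a protein that supports p53 activity and takes part in autophagy. At P28, its levels were 832, 945 and 549 normalized reads in controls and 1788, 1904 and 1783 in dM1/2, with no overlap, and it rose by a log2 fold change of 1.27 (SE 0.21, adjusted p = 0.0041). At P24, controls held 735, 698 and 1406 and dM1/2 libraries 1291, 1331 and 1531, so that the groups overlapped through control 3 (log2 fold change 0.62, adjusted p = 0.12). Without that library, the log2 fold change was 0.95 and passed the test (adjusted p = 0.0024).

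Phlda3 encodes a small PH-domain protein that opposes Akt at the membrane. It held 682, 357 and 415 normalized reads in P28 controls and 921, 1141 and 1009.7 in dM1/2, and rose by a log2 fold change of 1.13 (SE 0.25, adjusted p = 0.013). Leaving out P28 dM1/2 library 2 ended this call (adjusted p = 0.056). At P24, the values were 476, 401 and 322 in controls and 509, 495 and 845 in dM1/2, without overlap and short of the threshold (log2 fold change 0.60, adjusted p = 0.11).

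Aen encodes an exonuclease that enhances apoptosis. In P24 controls it held 372, 518 and 429 normalized reads, and in dM1/2 698, 802 and 886. At P28, controls held 439.8, 305 and 433 and dM1/2 libraries 888, 953 and 875. Aen rose at both ages, by log2 fold changes of 0.86 (SE 0.16, adjusted p = 0.0085) and 1.22 (SE 0.17, adjusted p = 0.0022), and held in each fit that left out a library.

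Eda2r, the receptor of ectodysplasin A2 in the TNF receptor family, had the largest fold changes of the 10 genes and the lowest levels in anagen controls. At P24, controls held 46.8, 22.6 and 78.2 normalized reads and dM1/2 libraries 173, 162 and 258, a rise of 2.12 (SE 0.43, adjusted p = 0.011) on the log2 scale. This call was lost without P24 dM1/2 library 3 (adjusted p = 0.052). At P28, controls held 117, 107 and 6.07 and dM1/2 libraries 353, 408 and 395. Every dM1/2 library exceeded every control, yet the value of control 3, which rested on 16 reads, widened the error (log2 fold change 3.11, SE 1.03, adjusted p = 0.054). Without control 3, the log2 fold change was 1.77 and passed the test (adjusted p = 0.00027). DESeq2 on recovered reads gave 2.32 with all 6 libraries (adjusted p = 0.0073), while edgeR with TMM gave 2.36 (adjusted p = 0.065). Control 3 was also the P28 control with the highest Corin (75255, against 41112 and 30326) and the lowest Hdac1 and Cdkn1a, and the part of these differences in the Eda2r value was not tested.

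Ccng1 encodes cyclin G1, which recruits a phosphatase to Mdm2. Its P28 levels were 1452, 1431 and 1322 normalized reads in controls and 2079, 3108 and 2489 in dM1/2, and it rose by a log2 fold change of 0.85 (SE 0.16, adjusted p = 0.0080). At P24, dM1/2 library 3 (2427) stood far above libraries 1 and 2 (1333 and 1483), and controls held 1233, 1145 and 1166. The P24 groups did not overlap, but the log2 fold change of 0.51 did not pass the test (adjusted p = 0.12).

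Plk2, a kinase of centriole duplication and stress responses, went the other way. In P24 controls it held 2503, 3718 and 1903 normalized reads, against 973, 627 and 786 in dM1/2. At P28, the values were 2326, 1406 and 2591 in controls and 740.3, 772 and 888 in dM1/2. Plk2 was lower in every dM1/2 library than in any control at both ages, by a log2 fold change of -1.73 (SE 0.26, adjusted p = 0.0040) at P24 and -1.35 (SE 0.24, adjusted p = 0.0056) at P28, and it passed in each fit that left out a library. In telogen controls, Plk2 held 1644, 1161 and 1242 at P20 and 756, 858 and 1326 at P60, so that the anagen dM1/2 levels lay within or below the telogen range.

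Rrm2b encodes the p53-inducible small subunit of ribonucleotide reductase, which supplies deoxynucleotides for DNA repair. It was the other member that was lower. Controls held 264, 239.5 and 228 normalized reads at P28 and dM1/2 libraries 151, 148 and 168, a fall of 0.64 (SE 0.15, adjusted p = 0.015) on the log2 scale. This call was lost without P28 control 1 (adjusted p = 0.072) or without P28 dM1/2 library 2 (adjusted p = 0.063). At P24, controls held 205, 242 and 326 and dM1/2 libraries 164, 171 and 157, with no overlap and a log2 fold change of -0.62 just short of the threshold (adjusted p = 0.0502). It passed at P24 in edgeR with TMM (adjusted p = 0.045) and in DESeq2 (adjusted p = 0.019) on recovered reads.

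DP markers also differed between the anagen groups. Of the 10, 1 rose and 5 fell at P24, and 2 rose and 4 fell at P28. Corin held between 30326 and 75255 normalized reads in P28 controls and between 4009 and 5005 in dM1/2. The summed level of the 10 DP markers ranged from 268576 to 322284 in P24 controls and from 137295 to 168074 in dM1/2, and at P28 from 138904 to 403219 and from 114648 to 125814. Sums for other cell types were small or overlapped: the 10 keratinocyte markers between 133 and 273 in P28 controls and between 128 and 219.8 in dM1/2, the 5 endothelial markers between 366 and 1548 and between 474 and 550.0, and the 5 dermal sheath markers between 3258 and 8793 and between 2061 and 4832. The 5 immune markers lay between 132 and 257 in P28 controls and between 59.1 and 679 in dM1/2, the 5 melanocyte markers between 69.4 and 114 and between 36.9 and 73.8, and the 5 muscle markers between 38.3 and 398 and between 244 and 409. The part of these markers in the changes of the p53 targets was not tested.

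**Figure D2:**
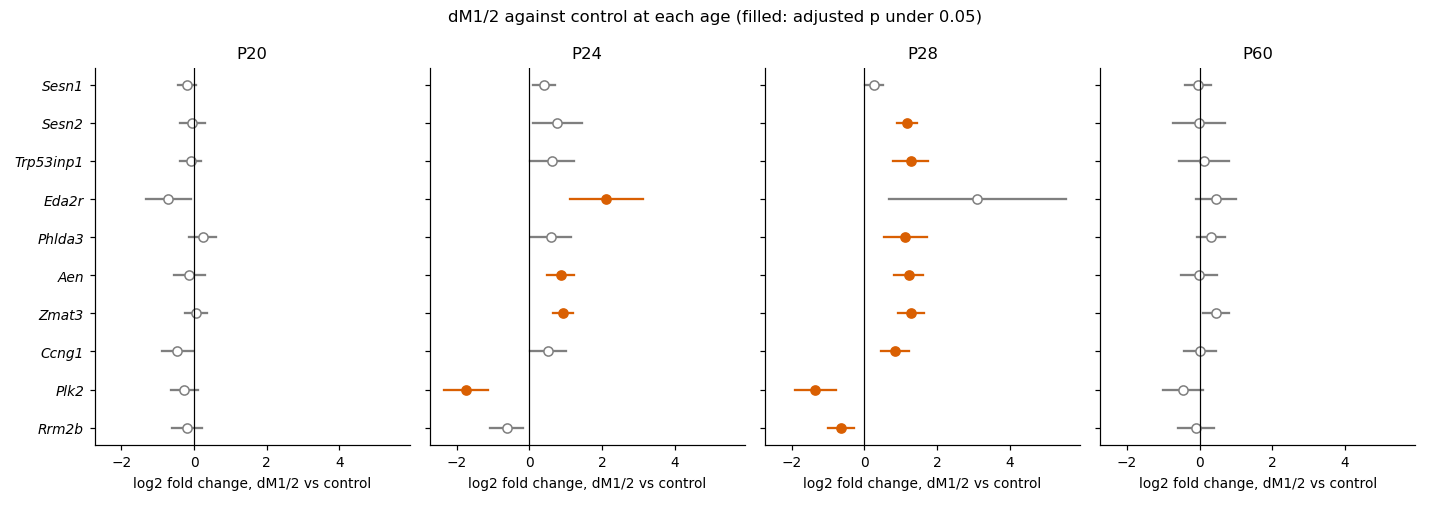
Log2 fold change of dM1/2 against control (x axis) for the 10 genes (y axis) at each age. Points are limma estimates with 95% confidence intervals, filled where the adjusted p was under 0.05. At P28, 8 genes are filled, with Eda2r at 3.11 and a wide interval, and no gene is filled at P20 or P60.

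In telogen, no member passed the test. At P20, 0.433% of all 13845 genes were called in either direction, and the members lay between a log2 fold change of -0.71 for Eda2r (adjusted p = 0.20) and 0.23 for Phlda3 (adjusted p = 0.47), with a median of -0.16. Of the 10, 2 had an unadjusted p under 0.05 in limma (Eda2r and Ccng1), as did 2 in edgeR with TMM and 1 in DESeq2, and none was called by either. Over all genes, 2735 of 13845 had an unadjusted p under 0.05 in limma. Ccng1 was called lower only without P20 control 1 (log2 fold change -0.63, adjusted p = 0.045). At P60, 0.0% of all genes were called by limma, with 525 genes and 1 member (Zmat3) at an unadjusted p under 0.05, and edgeR with TMM and DESeq2 called no member either. Zmat3 held 999, 782 and 851 normalized reads in P60 controls and 1078, 1315 and 1203 in dM1/2, without overlap (log2 fold change 0.45, adjusted p = 0.99). Eda2r held 212, 186 and 166 and 343, 209 and 235 in the same libraries, its highest control levels of any age. The 95% confidence interval at P60 ran from 0.09 to 0.81 for Zmat3 and from -0.56 to 0.82 for Trp53inp1.

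Most members overlapped between genotypes in telogen, with Zmat3 and Phlda3 at P60 and Sesn1 at P20 as the exceptions. Of all 13845 genes tested at P20, every dM1/2 library lay above every control for 1671 and below for 1839. At P60, this held for 672 and 573 of 14042 genes. Aen held 354, 387 and 289.7 normalized reads in P20 controls and 384, 301 and 261 in dM1/2, and 319, 381 and 311 against 258, 344 and 412 at P60. Sesn2 held 953, 785 and 866 against 1026, 699 and 817 at P20, and 439, 534 and 789 against 364, 691 and 708 at P60. The dM1/2 libraries reached both above and below the controls for Aen at P60 and for Sesn2 at P20. For Aen at P20 and Sesn2 at P60, no dM1/2 library was above the highest control. Trp53inp1 held 830.3, 755 and 806 against 689, 841 and 708 at P20, and 838, 658 and 1360.3 against 1366, 849.9 and 843 at P60, where a single library of each genotype stood far above the others. Phlda3 held 399, 325 and 321 against 339, 474 and 419.8 at P20, and at P60 every dM1/2 library (485, 409.8 and 471) was above every control (403, 324 and 364) without passing the test (log2 fold change 0.32, adjusted p = 0.99). Sesn1 was lower in each P20 dM1/2 library (794, 861 and 745) than in any control (940.1, 923 and 878), by a log2 fold change of -0.19 that missed the threshold (adjusted p = 0.37). Plk2 and Rrm2b, the genes lower in anagen dM1/2, overlapped at both telogen ages. Plk2 held 1071, 949 and 1343 in P20 dM1/2 and 573, 805 and 734 at P60, and Rrm2b held 252, 206 and 207 against 157, 208 and 218 at P20 and 258, 303 and 293 against 348, 224 and 242 at P60.

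The difference between the effect in anagen (mean of P24 and P28) and that in telogen (mean of P20 and P60) was tested in a single model over 24 libraries. It passed the test for 9 of the 10 members, 7 in which dM1/2 was further above control in anagen and 2 in which it was further below, against 16.1% and 14.1% of 14243 genes. The largest was Eda2r (2.74, SE 0.68, adjusted p = 0.0048), followed by Aen (1.12, SE 0.19, adjusted p = 0.00026), Sesn2 (1.003, adjusted p = 0.0086) and Trp53inp1 (0.93, adjusted p = 0.012). Ccng1 (0.90), Zmat3 (0.85) and Sesn1 (0.46) followed, with adjusted p-values of 0.0033, 0.00013 and 0.0038. Plk2 (-1.19, adjusted p = 0.0021) and Rrm2b (-0.49, adjusted p = 0.048) had the opposite sign. The call for Rrm2b held in 6 of the 24 fits that left out a library. Phlda3 did not pass (0.59, adjusted p = 0.054). Stage goes with sex and with depth in this series, so that these cannot be told apart in this contrast.

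Between early and mid anagen, the effect of the ablation did not differ beyond the error for any member, with 0.707% of all genes called. The P28 effect minus the P24 effect ranged from -0.16 for Sesn1 to 0.98 for Eda2r. None of the 10 had an unadjusted p under 0.05 in limma, edgeR with TMM or DESeq2, against 1680 of all 14139 genes in limma. The value for Eda2r turned to -0.35 without P28 control 3. Within genotypes, no member changed from P24 to P28 in controls (1.46% of all genes called). There, 1 member had an unadjusted p under 0.05 in limma, against 2593 of all 13966 genes. The same held for 1 member in edgeR with TMM and 2 in DESeq2, none of them called. The shares of genes called move with single libraries. As each library was left out, the calls over all genes went from 100 to between 8 and 167 for the difference of effects. In controls, they went from 204 to between 0 and 67. In dM1/2, where 2.67% of genes were called, Eda2r rose from P24 to P28 by a log2 fold change of 0.99 (adjusted p = 0.034) and Zmat3 by 0.72 (adjusted p = 0.020). These calls rest on single libraries, since between 0 and 5 members were called as each was left out. These comparisons use the same libraries as those between genotypes. Between the telogens, no member differed in controls by limma (12.6% of all genes called), although Sesn2 was lower at P60 by 0.60 (adjusted p = 0.085) and Eda2r higher by 0.57 (adjusted p = 0.097) on the log2 scale. At an unadjusted p under 0.05, 3 members differed in limma, 2 in edgeR with TMM and 3 in DESeq2, none of them called. Over all genes, 4167 of 13900 did so in limma. Females were used at P20 and both sexes at P60, so that age and sex cannot be told apart between the telogens. Without P60 control 3, Sesn2 and Plk2 were called lower at P60 (adjusted p = 0.023 and 0.049).

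Levels were compared between genes as normalized reads per kb of exon. In P24 controls, Plk2 was highest (603 ± 206, SD, n = 3), above Ccng1 (336 ± 13.01) and Phlda3 (256 ± 49.5), and Eda2r was lowest (8.35 ± 4.73) beneath Rrm2b (28.2 ± 6.79), and each of these steps held in every library. Phlda3, Sesn1 (202 ± 23.8), Sesn2 (161 ± 56.4) and Trp53inp1 (146 ± 61.6) overlapped with their neighbours in that order. In P28 dM1/2, Ccng1 (729 ± 148) and Phlda3 (657 ± 71.0) led and overlapped, followed by Sesn2 (351 ± 18.7), Trp53inp1 (282 ± 10.6) and Zmat3 (276 ± 22.9). Plk2 (178 ± 17.3) was in the seventh place of 10, above Aen (156 ± 7.17). In P28 controls, Plk2 had the highest mean (469 ± 138) but overlapped with Ccng1 (399 ± 19.99), unlike in P24 controls. Eda2r (65.4 ± 4.87) stood above Rrm2b (17.03 ± 1.18) in every P28 dM1/2 library. In P28 controls, as in P24 controls, Eda2r was lowest, beneath Rrm2b in every library.

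**Figure D3:**
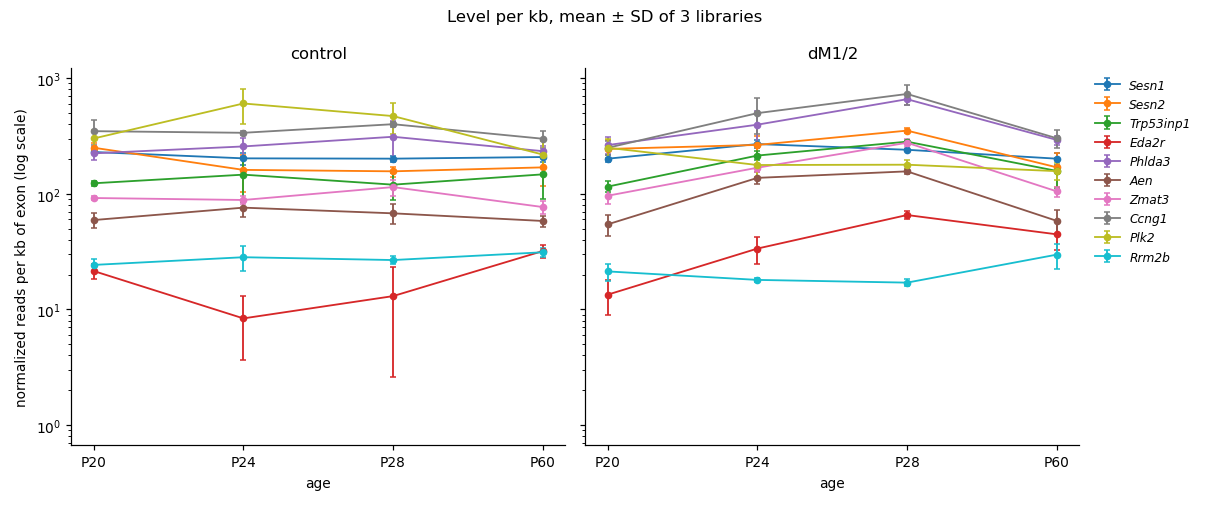
Normalized reads per kb of exon (y axis, log scale) of the 10 genes by age (x axis) in control and dM1/2 DP, as mean ± SD of 3 libraries. Eda2r dips to 8.35 in P24 controls and climbs to 65.4 in P28 dM1/2, and Plk2 peaks at 603 in P24 controls but stays near 178 in anagen dM1/2.

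Across the 24 libraries, which share 8 groups of 3, the members did not all move as a set. On log2(normalized reads + 1), Pearson's r with the mean z-score of the other 9 was between 0.80 and 0.83 for Ccng1, Trp53inp1, Zmat3, Phlda3 and Aen, and 0.54, 0.50 and 0.41 for Sesn1, Sesn2 and Eda2r. It was -0.47 for Plk2 and -0.67 for Rrm2b. Within the 12 control libraries, r lay between -0.25 and 0.33 for all 10. The closest pair was Zmat3 and Aen (r = 0.87) and the most opposed Eda2r and Plk2 (r = -0.80). The 5 genes whose profile over 24 libraries was most like the mean z-score of the members, of 13270 ranked, were Tlx1 (r = 0.94), Hcn2 (0.90), Pnma2 (0.90), Akr1c13 (0.90) and Napsa (0.90). Mean normalized reads of Hcn2 were 72.3 in P28 controls and 689 in dM1/2, and those of Pnma2 were 6.89 and 366. Means of Tlx1 were 16.0 and 108 in P24 and P28 dM1/2 and at most 0.77 in every other group. Those of Napsa were 11.2 and 69.9 against at most 2.24. Means of Pnma2 were 202 in P24 dM1/2 and at most 7.49 in every group other than anagen dM1/2. Tlx1, Napsa and Pnma2 thus reached the mean of 10 normalized reads required for this ranking only through anagen dM1/2.

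Of the p53 pathway around these genes, Trp53 rose at P28, from 825, 811 and 742 normalized reads in controls to 1549, 1352 and 1290.3 in dM1/2 (log2 fold change 0.81, SE 0.12, adjusted p = 0.0029). At P24, Trp53 held 949, 1024 and 1283 in controls and 1072, 1152 and 1073 in dM1/2 (log2 fold change 0.03, adjusted p = 0.90). The difference between these effects was 0.79 and did not pass (adjusted p = 0.073). Mdm2, the ligase that degrades p53 and itself a target, held 583, 635 and 496 in P28 controls and 598, 496 and 562 in dM1/2, with overlap (log2 fold change -0.05, 95% confidence interval -0.39 to 0.29).

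A list of 28 further known p53 targets was read from the same fits. At P24, 13 rose and 2 fell, with a median log2 fold change of 0.50, against 14.8% and 11.8% of all genes. At P28, 11 rose and 3 fell, with a median of 0.54, against 20.0% and 15.6%. Neither telogen age had a call among them by limma or by edgeR with TMM, and DESeq2 called 1 at P20. At an unadjusted p under 0.05 in limma, there were 4 of these genes at P20 and 3 at P60. Over all genes, there were 2735 of 13845 and 525 of 14042. The largest rises at P28 were those of Psrc1, Gtse1 and Cdkn1a. Psrc1, which acts on spindle microtubules, went from 40.5, 12.2 and 7.58 normalized reads in controls to 414, 556 and 426 in dM1/2 (log2 fold change 4.79, adjusted p = 0.0012). Gtse1, a microtubule-associated protein of dividing cells, went from 29.6, 19.2 and 10.6 to 260.1, 359 and 309 (log2 fold change 4.00, adjusted p = 0.00073). Cdkn1a, the inhibitor of cyclin-dependent kinases, held 673, 598 and 148 in controls and 1796, 2509 and 2162 in dM1/2 (log2 fold change 2.45, SE 0.55, adjusted p = 0.014). At P24, Cdkn1a overlapped between groups (538, 815 and 999.95 against 1291, 849 and 1632), with a log2 fold change of 0.68 (adjusted p = 0.13).

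Among genes of the list known for roles in cell death, Bbc3 (log2 fold change 1.19 and 1.52 at P24 and P28), Bax (0.55 and 0.98), Fas (1.22 and 0.97), Tnfrsf10b (1.07 and 1.29) and Pidd1 (1.76 and 2.24) rose at both anagen ages. Apaf1 rose at P24 (0.65) and not at P28 (0.43, adjusted p = 0.42). Pmaip1 (-1.29 and 1.76), Perp (-1.48 and -1.16), Ei24 (-0.25 and 0.08) and Cdip1 (-0.22 and -0.28) passed at neither age. The falls at P28 were those of Aifm2, Pml and Ak1. Aifm2, a suppressor of ferroptosis, went from 341, 357 and 389 normalized reads to 153, 154 and 183 (log2 fold change -1.15, adjusted p = 0.0017). Pml, the scaffold of nuclear bodies, held 868, 637 and 749 in controls and 362, 323 and 435 in dM1/2 (log2 fold change -1.01, adjusted p = 0.0051). Ak1, adenylate kinase, held 1682, 1279.6 and 2043 in controls and 672, 1147 and 1017 in dM1/2 (log2 fold change -0.83, adjusted p = 0.041). The anagen effect minus the telogen effect passed for 17 of the 28, higher in 13 and lower in 4, against 16.1% and 14.1% of all genes.

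**Figure D4:**
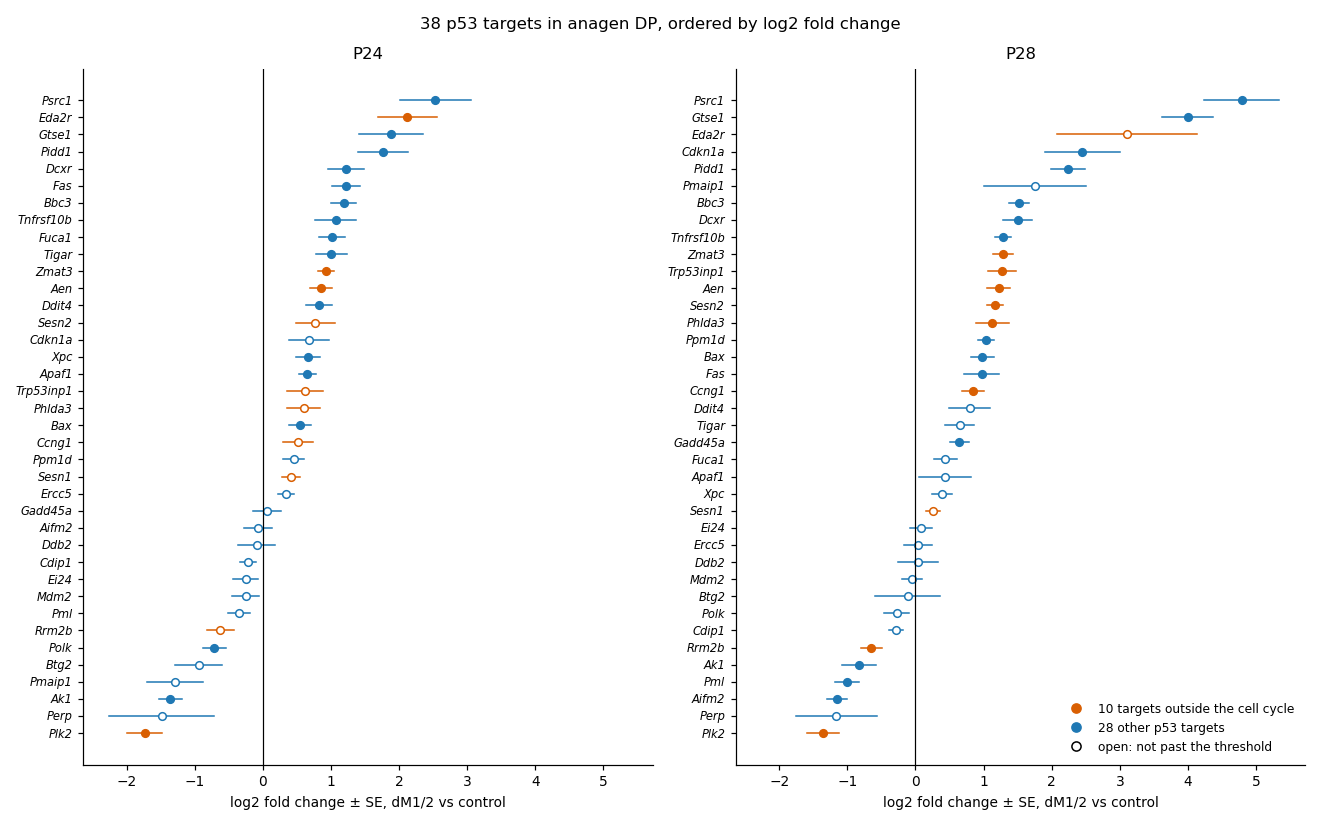
Log2 fold change of dM1/2 against control ± SE (x axis) at P24 and P28 for the 10 genes (orange) and 28 other p53 targets (blue), ordered by value (y axis). Filled points passed an adjusted p of 0.05. The 10 genes are spread along both orders, from Plk2 at the bottom (-1.73 and -1.35) to Eda2r near the top (2.12 and 3.11).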

How the data were processed

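DP cells were purified from control and dM1/2 mice, and total RNA was depleted of ribosomal RNA and sequenced as 50 base single reads from directional libraries. The authors used Trimmomatic for trimming, TopHat2 for alignment (mm10), HTSeq for counting on Ensembl genes (GRCm38) and DESeq2 for normalization. The version of DESeq2 and the strand setting are not given in the sources used here. The deposited signal is the number of reads of a gene scaled by a size factor per library. Dividing by the value of a single read gave whole reads for 100% of values (tolerance 0.01). Deposited fold changes, standard errors and p-values of the authors were not used.

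Comparisons were tested two-sided in limma 3.58.1 (trend) after adding a pseudocount of 1 to the normalized reads and taking log2, on genes averaging 10 or more normalized reads, with Benjamini-Hochberg adjustment over all genes and a threshold of 0.05. It was fitted on 6 libraries for each comparison within an age or within a genotype, on 12 for the P28 effect minus the P24 effect and on 24 for the anagen minus telogen effect. Alternatives were another pseudocount or filter, log2-CPM with TMM (prior count 2), edgeR 4.0.16 and DESeq2 1.42.0 on recovered reads, a threshold of 0.01, a single fit over 24 libraries, a replicate block and leaving out each library (R 4.3.3). Tests were also run on counts simulated at the depths of the P20 and P28 libraries, with the same spread between replicates for every gene. The spread seen between the real replicates was not simulated, so that this run does not show how the tests behave on these data. Named were the 10 members, Hdac1, Hdac2, Trp53, Mdm2 and Cdkn1a, the 3 largest rises and falls at P28 among 28 other targets past the threshold without overlap, and the 5 genes most like the members. The genes of cell death and the markers given with values were chosen after their values were seen. Members and lists were chosen with earlier results of these data known. Replicates are labelled biological replicates of a group, and replicates of a group differed beyond counting error in every pair. Libraries held between 8171944 and 49331751 reads on genes, and a gene at 0 allows up to 3 reads. Levels per kb used exon lengths of GENCODE, in which 25431 of 25755 identifiers were found.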

Additional observations from a re-analysis of the deposited data

Results flagged for a closer look

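By the interaction test, 9 of the 10 genes responded to the ablation differently in anagen than in telogen, where 16.1% of all genes were called higher and 14.1% lower. On the log2 scale the anagen effect exceeded the telogen effect by 2.74 for Eda2r, 1.12 for Aen, 1.003 for Sesn2, 0.93 for Trp53inp1, 0.90 for Ccng1, 0.85 for Zmat3 and 0.46 for Sesn1. It was lower in anagen by a difference of -1.19 for Plk2 and -0.49 for Rrm2b. Rrm2b had an adjusted p of 0.048 in limma, close to the threshold, and was called in 6 of the 24 fits that left out a library. Anagen libraries were from males and held 35469841 to 49331751 reads, and telogen libraries included females and held 8171944 to 13369732, so that stage, sex and depth cannot be told apart here.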

How the results depend on the processing

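Directions of the 10 genes at P24, P28 and in the anagen minus telogen contrast were kept in every setting run. In the count of members called lower at P24, 1 became 2 with at least 10 normalized reads in every library, log2-CPM with TMM, edgeR with TMM, edgeR with DESeq2 size factors, DESeq2 and a single fit over 24 libraries, and ranged from 1 to 2 as each library was left out. Members called higher at P24 went from 3 to 5 in the single fit, with Sesn1 and Sesn2 added. Members called lower at P28 went from 2 to 1 at an adjusted p under 0.01 and with the replicate block, and from 1 to 2 as each library was left out. Members called lower in the anagen minus telogen contrast went from 2 to 1 without a filter, with log2-CPM and TMM, at 0.01 and with the replicate block, and from 1 to 2 as each library was left out. From P24 to P28 in dM1/2, the 2 members called higher became 4 with DESeq2, 0 at 0.01 and 1 in the single fit, and from 0 to 5 as each library was left out. Members called lower ranged from 0 to 1 at P20 and from 0 to 2 between P60 and P20 controls as each library was left out. The P28 effect minus the P24 effect of Eda2r reversed, and ranged from -0.35 (without P28 control 3) to 1.68 (without P28 control 1). The cause of these changes was not tested.

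Replicate numbers were not treated as pairs, since no comparison had a correlation of deviations over 0.1 for all 3 numbers. At P20, all 3 correlations were positive (0.21, 0.06 and 0.12). Each P20 dM1/2 library correlated best with the control of its own number, so pairing at P20 is not excluded. With the replicate block, Rrm2b at P28 had an adjusted p of 0.063, the calls for Rrm2b in the anagen minus telogen contrast were lost, and no other call of a member changed.

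Counts over all genes moved by over 1.5 times in some settings. At P20, 60 genes became 668 with DESeq2, 439 with the block, 23 in the single fit, 4 at 0.01 and 0 to 1530 as each library was left out, the highest without P20 control 1. At P24, 3735 became 2366 with the block, 1565 at 0.01 and 2057 without P24 control 2, and at P28, 5018 became 2638 at 0.01 and 3043 without P28 dM1/2 library 2. At P60, 0 became 26 with DESeq2, 19 in the single fit, 6 with the block and 1 with log2(normalized reads + 10). The anagen minus telogen contrast had 4298 calls and 2555 at 0.01. The P28 effect minus the P24 effect had 100 calls, 595 with DESeq2, 0 with the block and 8 to 167 as each library was left out. Controls between P24 and P28 had 204 calls, 1494 with DESeq2, 1313 in the single fit, 27 with the block and 0 to 67 as each library was left out. In dM1/2 between these ages, 375 became 1127 with DESeq2, 78 in the single fit and 57 to 446 as each library was left out, and in controls between telogens, 1746 became 923 with the block, 462 at 0.01 and 527 to 2796. The precision is limited by 3 libraries a group.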
